A study of Mus musculus with 4 samples.

Results

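A set of 9 genes that mark mast cells was followed in the mouse ureter just before birth. They are Cpa3, Cma1, Mcpt4, Tpsb2, Tpsab1, Hdc, Kit, Fcer1a and Ms4a2, and the probes were found as every non-control probe that carries 1 of these 9 gene names. That gave 10 probes of 39429 on the array, and 9 genes of 24357, since Tpsb2 has 2 probes. The genes were chosen by earlier measured values of the same contrast, the ratio of mutant over control, so those ratios are given as a description. No p is given for them, and counts of members past a threshold, where given, describe the fit and are no evidence.

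The series compared ureters dissected from NMRI embryos late in gestation (E18.5). The mutant, called cKO, was Pax2-cre/+; Trp63(dN-flox/dN-flox), with both Trp63 alleles floxed for ΔNp63, the form of the transcription factor p63 found in basal epithelial cells. Pax2 is expressed in the nephric duct, from which the epithelium of the ureter derives, and Pax2-cre follows it. The control was Trp63(dN-flox/?), with 1 allele not specified and no cre listed, so cKO and control both carry a floxed allele and differ in the cre as well as in ΔNp63. Each of 4 arrays of 2 colours held RNA of 1 cKO and 1 control, which makes 8 RNAs, 4 of each genotype. Arrays 1, 3 and 4 held female pairs and array 2 a male pair. The red dye marked the cKO on arrays 1 and 3, and the control on arrays 2 and 4. All 4 arrays lay on 1 slide. The labels do not say whether an RNA came from 1 embryo or from a pool, so the spread between arrays may be partly technical.

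Mast cells are tissue-resident cells of the blood lineage that store mediators in granules and release them when IgE bound to the receptor FcεRI is cross-linked. Their granules hold proteases packed on the proteoglycan serglycin: carboxypeptidase A3, chymases and tryptases. Stem cell factor, acting through the receptor Kit, keeps mast cells alive, and connective tissue mast cells settle in the skin, gut wall and urinary tract before birth.

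Levels are log2 intensities normalized within and between arrays, and ratios are log2 of cKO over control on 1 array. Tests across all genes used limma with the dye as a term and an adjusted p of 0.05 as the threshold. In the targeted gene, Trp63, the ratio was -2.86, -1.68, -2.03 and -2.13 on arrays 1 to 4 (limma adjusted p = 0.00207). Its probe was not placed against the deleted exon, so it reads the Trp63 transcript level and not the deletion itself. Array 1 stood apart in its dim probes: 90.0% of its green spots and 82.6% of its red ones cleared the background, whereas arrays 2 to 4 had 75.0% to 76.5% in green and 72.4% to 72.9% in red.

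The sequences of 3 probes are printed because the tryptase and chymase readings rest on short stretches of closely related genes. All run 5′ to 3′ as on the array, with positions in mm9 as the scanner files give them. The Cma1 probe covers chr14:56561491-56562550, a span of 1060 bases for 60 bases of probe, so its target crosses an intron. The Tpsab1 probe lies at chr17:25480640-25480699 and probe 2 of Tpsb2 at chr17:25504493-25504552, in the tryptase cluster on the same chromosome. Cross-hybridization between the tryptase paralogs was not tested.
Cma1 probe: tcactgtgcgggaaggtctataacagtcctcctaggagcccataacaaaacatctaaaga
Tpsab1 probe: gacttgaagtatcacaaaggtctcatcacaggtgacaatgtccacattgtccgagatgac
Tpsb2 probe 2: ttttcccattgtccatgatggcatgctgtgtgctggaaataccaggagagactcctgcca

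The other probes lie at chr3:20115674-20115733 (Cpa3), chr14:56678589-56678648 (Mcpt4), chr17:25504819-25504878 (Tpsb2 probe 1) and chr2:126419516-126419575 (Hdc). Those of the receptors lie at chr5:76052394-76052453 (Kit), chr1:175151438-175151497 (Fcer1a) and chr19:11691701-11691760 (Ms4a2). Each is 60 bases long, and each was printed on the array in 4 spots.

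In the cKO ureters Cpa3, Cma1 and Mcpt4 read lower than in the control on each of the 4 arrays, and the other members did not move as a block. Of the 7 members that could be tested, 3 were past the threshold as lower and 0 as higher; of all 18161 genes tested, 5.63% were lower and 2.92% higher. Below the control on every array were 3 of the 7, where 16.3% of all genes were, and above it on every array was 1, where 14.3% of all genes were. The members were chosen on this contrast, so nothing is read from those counts. The median ratio of the 7 was -0.37 on the log2 scale, beside 0.00 over all genes, whose ratios had an SD of 0.28.

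Cpa3 encodes carboxypeptidase A3, a granule enzyme that trims the C-terminal residue of peptides. Its level was 12.23, 11.76, 12.19 and 11.69 in the controls of arrays 1 to 4, and 11.17, 10.74, 11.31 and 10.69 in the cKO. Every cKO reading was below every control reading. The share of all genes for which this holds was not computed, so nothing is read from it here or for Cma1. The ratio was -1.06, -1.03, -0.88 and -0.999, a mean of -0.99 ± 0.08 (SD, n = 4), or 1.99-fold lower. The 4 spots of the probe differed by an SD of at most 0.041 on any array.

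Cma1 encodes mast cell chymase 1, a serine protease of connective tissue mast cells that is stored together with carboxypeptidase A3. Control levels were 10.07, 9.94, 10.58 and 9.77, and cKO levels 9.14, 9.11, 9.69 and 8.98. Again no cKO reading reached the lowest control, in the male pair as in the female pairs. Ratios of -0.93, -0.83, -0.89 and -0.78 gave a mean of -0.86 ± 0.06 (SD, n = 4), or 1.81-fold lower.

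Mcpt4, the chymase of mouse connective tissue mast cells that most resembles human chymase in activity, was much closer to background. Controls read 7.19, 7.78, 7.76 and 7.75, and cKO ureters 6.65, 7.18, 7.41 and 7.43. The groups overlap because the control of array 1 was lower than 2 of the cKO readings. Within each array the cKO was the lower of the pair, at -0.54, -0.60, -0.35 and -0.32, a mean of -0.45 ± 0.14 (SD, n = 4), or 1.37-fold lower. It was 1 of the 3 members counted above with all 4 arrays, and was not counted without array 1, without array 2 or without array 3.

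**Figure D1:**
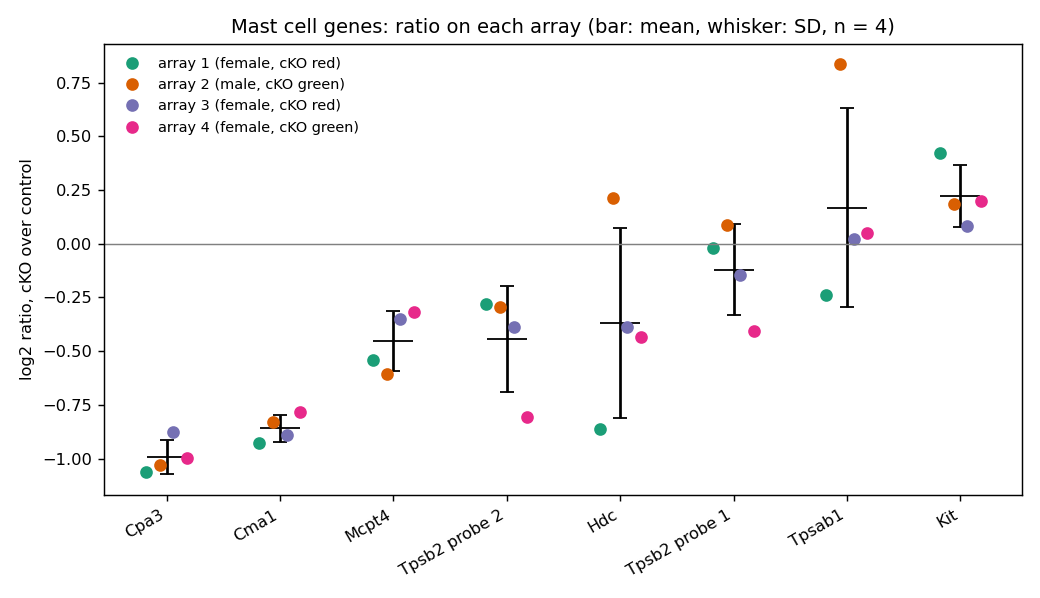
Log2 ratio of cKO over control for the 8 probes that passed the filter on background; points are arrays, the bar is the mean and the whisker the SD over 4 arrays. Cpa3 and Cma1 lie between -1.06 and -0.78 on every array, whereas Hdc, Tpsb2 probe 1 and Tpsab1 have arrays on both sides of 0.

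The tryptases, trypsin-like proteases that form tetramers on heparin, gave no common direction. Probe 1 of Tpsb2, the brighter of its pair, read 10.40, 9.35, 9.50 and 9.43 in the controls and 10.38, 9.43, 9.35 and 9.02 in the cKO. Both genotypes were highest on array 1 and overlapped. Its ratios of -0.02, 0.09, -0.15 and -0.41 averaged -0.12 ± 0.21 (SD, n = 4), within the spread between arrays.

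Probe 2 of Tpsb2, printed above, read 8.17, 8.57, 9.13 and 8.49 in the controls and 7.89, 8.27, 8.75 and 7.68 in the cKO. It was lower in the cKO on each of the 4 arrays, at -0.28, -0.30, -0.39 and -0.81, a mean of -0.44 ± 0.25 (SD, n = 4), or 1.36-fold lower. The 2 probes of this gene thus disagree: probe 2 has a lower ratio than probe 1 on each array. Which of them reads Tpsb2 alone was not tested.

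Tpsab1 read 6.67, 6.86, 7.53 and 6.79 in the controls and 6.43, 7.70, 7.55 and 6.84 in the cKO. Its probe was dim, with a signal over local background of 32.4 to 114.7 units across the RNAs. The male pair alone was far apart. Its ratio was -0.24, 0.83, 0.02 and 0.05, a mean of 0.17 ± 0.46 (SD, n = 4), and its 4 spots differed by an SD of up to 0.62 on 1 array. The spread between arrays was larger than the mean.

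Hdc encodes histidine decarboxylase, which makes histamine. Controls read 10.16, 8.79, 9.08 and 9.16, and the cKO 9.30, 9.01, 8.69 and 8.73. The control of array 1 was the highest of the 8 RNAs, and the genotypes overlapped. Ratios were -0.86, 0.21, -0.39 and -0.43, a mean of -0.37 ± 0.44 (SD, n = 4); the cKO was lower in the 3 female pairs and higher in the male pair.

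**Figure D2:**
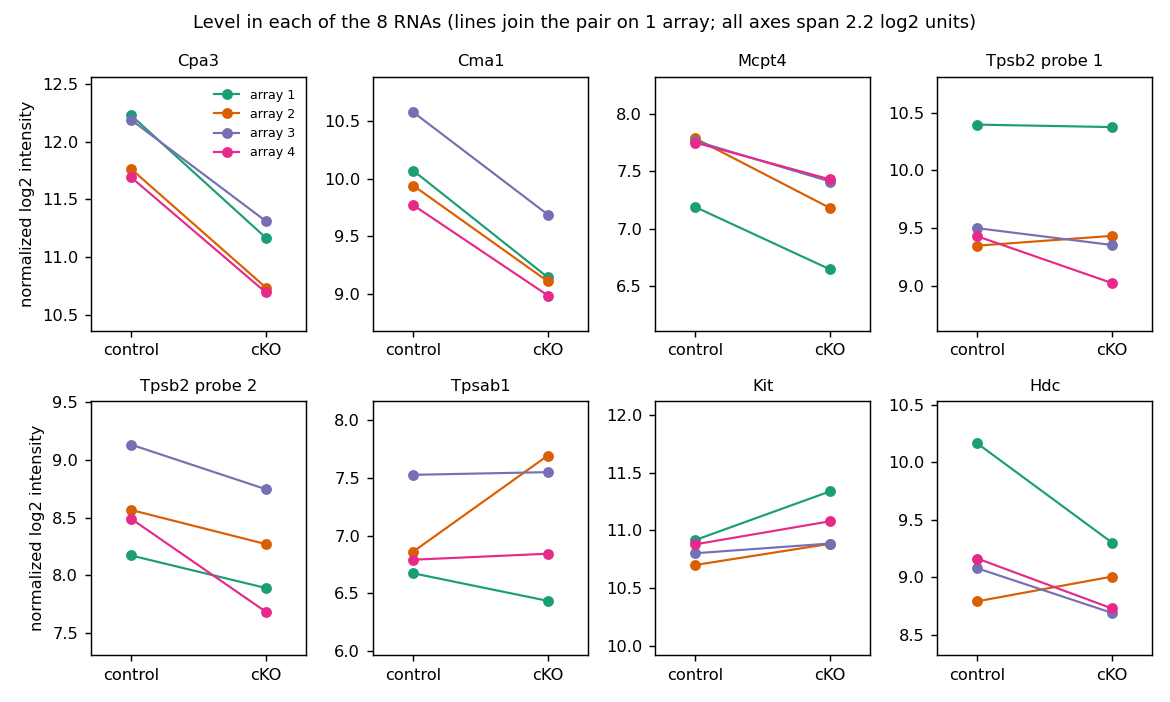
Normalized log2 intensity of the 8 probes that passed the filter in the control and the cKO of each array; a line joins the pair on 1 array and each axis spans 2.2 log2 units around its own probe, so heights are not compared between panels. For Cpa3 and Cma1 all 4 lines fall and the genotypes do not overlap, and for Kit all 4 rise by less.

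Kit, the receptor for stem cell factor, read higher in the cKO, where Cpa3, Cma1 and Mcpt4 read lower; its ratio lay next to that of Tpsab1. Its level was 10.92, 10.699, 10.80 and 10.88 in the controls and 11.34, 10.88, 10.89 and 11.08 in the cKO. The cKO was the higher of the pair on each array, at 0.42, 0.18, 0.08 and 0.20, a mean of 0.22 ± 0.14 (SD, n = 4), or 1.17-fold higher. The ranges of the genotypes overlapped. Kit is also made by melanocytes, interstitial pacemaker cells and germ cells. Of 11 tested genes of those cells, 1 was higher and 0 were lower: Ednrb, an endothelin receptor of neural crest cells, at 0.28 ± 0.15 (SD, n = 4; limma adjusted p = 0.0403), which lost the call whichever array was left out. Further genes of that list, named after their values were seen, did not pass the threshold. Melanocyte genes Tyr and Pmel stood at 0.00 and -0.01. Ano1 and Etv1, of interstitial cells, were at -0.15 and 0.01, and the germ cell genes Dazl and Ddx4 at 0.24 and 0.10. Tyrp1, Slc45a2 and Oca2 were above background on array 1 alone, and Dct on 1 array among arrays 2 to 4.

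Fcer1a and Ms4a2, which encode the α and β chains of the IgE receptor, were well above background on array 1 and on none of the others, in both channels. Fcer1a had a signal over local background of 264.4 units in the control and 244.3 in the cKO of array 1, and between -2.1 and 8.2 units in the other 6 RNAs. Ms4a2 had 56.6 and 46.2 units on array 1 and between -0.82 and 11.1 elsewhere. The 99th percentile of the negative control spots was at most 16.5 units. No fold is given for these genes, and neither was tested. On array 1, 2894 probes were well above background in both channels that were so in neither channel on arrays 2 to 4, which is 32.0% of the 9057 such probes. Both IgE receptor chains were therefore above background in 1 pair only, on the array where many other dim probes were too. The other 7 of the 9 genes were above background in all 8 RNAs.

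**Figure D3:**
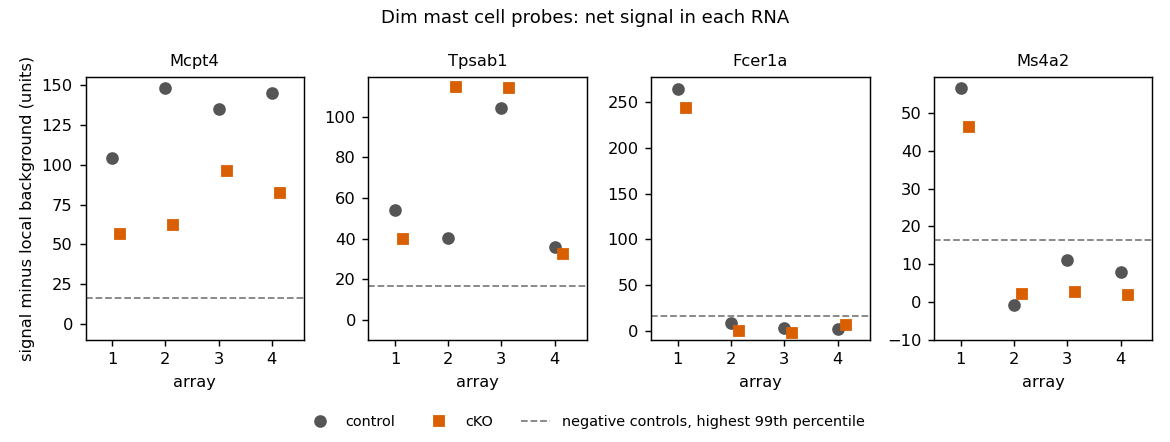
Signal over local background of 4 dim mast cell probes in the control and cKO RNA of each array; the dashed line is the highest 99th percentile of negative control spots, 16.5 units, and each panel has its own axis. Fcer1a and Ms4a2 clear the line on array 1 only, whereas Mcpt4 clears it in all 8 RNAs, with each cKO below its control.

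Ordered by ratio, Cpa3 stood below Cma1 by 0.13 ± 0.10 (SD, n = 4), in that order on 3 of 4 arrays and in the other order on array 3. Cma1 stood below Mcpt4 by 0.40 ± 0.13 on 4 of 4 arrays. From Mcpt4 upward, through probe 2 of Tpsb2, Hdc, probe 1 of Tpsb2, Tpsab1 and Kit, each neighbour lay within 1 SD of the next. The median of the 7 tested members was -0.54, 0.09, -0.35 and -0.41 on arrays 1 to 4, so the male pair was the 1 array without a negative median.

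Genes whose ratios over the 4 arrays were most like those of Cpa3 were found from the root mean square (RMS) difference to it among the tested genes. The 8 nearest that are no members were Slc39a4, a zinc importer (RMS 0.078 log2 units), Sh3gl2, an endophilin of membrane endocytosis (0.096), Pdk4, a pyruvate dehydrogenase kinase (0.098), and Cst6, a cystatin (0.11). They were followed by Atp2c2, a Golgi calcium pump (0.12), Fam161a, a ciliary protein (0.12), Pak3, a kinase (0.12), and Vav3, a guanine exchange factor (0.12). Among members, Cma1 was 30th of the genes by this measure at 0.16, Mcpt4 was at rank 584 and Hdc at rank 1295. Tpsb2 was at rank 3464, Kit at 16681 and Tpsab1 at 16711. The measure rests on 4 ratios per gene and is given as a description.

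Sequences before the transcription start are shown for the 3 genes that were lower on every array, because GATA factors, with Gata2 the one best known in mast cells, bind the letters GATA or, on the other strand, TATC. The 250 bases before the start come from RefSeq, GRCm38.p6, 5′ to 3′ on the gene's own strand, with GATA and TATC in capitals.
Cpa3 promoter, chr3:20242182-20242431, minus strand: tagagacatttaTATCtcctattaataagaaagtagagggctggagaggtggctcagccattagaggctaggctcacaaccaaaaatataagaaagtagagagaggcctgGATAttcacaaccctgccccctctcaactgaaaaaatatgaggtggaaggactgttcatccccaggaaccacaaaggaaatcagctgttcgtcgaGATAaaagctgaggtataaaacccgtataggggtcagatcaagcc
Cma1 promoter, chr14:55944676-55944925, minus strand: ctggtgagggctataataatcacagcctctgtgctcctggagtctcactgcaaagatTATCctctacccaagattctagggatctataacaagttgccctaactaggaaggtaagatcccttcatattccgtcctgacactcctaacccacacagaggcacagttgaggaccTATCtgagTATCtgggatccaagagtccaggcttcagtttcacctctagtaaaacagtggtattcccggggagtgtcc
Mcpt4 promoter, chr14:56062311-56062560, minus strand: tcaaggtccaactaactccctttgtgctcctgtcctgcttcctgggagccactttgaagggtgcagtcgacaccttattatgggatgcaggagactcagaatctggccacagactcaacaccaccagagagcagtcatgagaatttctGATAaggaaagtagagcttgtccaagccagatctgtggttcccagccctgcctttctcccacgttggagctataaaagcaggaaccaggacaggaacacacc

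Of the 9 genes, 7 were in that table. The window of Cpa3 held the letters GATA on either strand 3 times, that of Cma1 3 times and that of Mcpt4 1 time. Hdc had 2 matches, Fcer1a 2, Ms4a2 5 and Kit 0. Over all 32851 windows of this length 53.6% held at least 1. The letters CATGTG, an E-box bound by Mitf, were in the Fcer1a window alone among the members and in 12.3% of all windows. GAGGAA, the core of an ETS site as bound by PU.1, was in those of Fcer1a and Kit and in 23.3% of all. A match says only that the letters are there.

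A longer list of mast cell genes was set beside the members. Of its 38 genes 32 could be tested, 0 of them higher and 4 lower, with a median ratio of -0.05 beside 0.00 over all genes. The shares to set beside the counts of this and the other lists are those of all tested genes, 2.92% higher and 5.63% lower. The 4 were Galnt6, an enzyme that starts O-glycan chains and is also known from epithelia, at -1.92 ± 0.19 (limma adjusted p = 0.00057), and Kcne3, a potassium channel subunit also found in epithelia, at -0.90 ± 0.16 (limma adjusted p = 0.00142). Alox5, the 5-lipoxygenase of leukotriene synthesis, fell by 0.60 ± 0.11 on the log2 scale (limma adjusted p = 0.00431). Tpsg1, the membrane-anchored γ tryptase, was at -0.29 ± 0.04 (SD, n = 4; limma adjusted p = 0.0332), on cKO signals above background on 2 of 4 arrays, and lost the call whichever array was left out.

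Other genes of this list, named after their values were seen, did not pass the threshold. Srgn, the serglycin that packs the granule proteases, stood at -0.15 ± 0.12 (limma adjusted p = 0.155). Nearest to the threshold on the lower side was Rgs13, at -0.30 ± 0.11 (limma adjusted p = 0.0570), with cKO signals above background on 3 of 4 arrays. Il1rl1, the receptor of interleukin 33, was at -0.25 ± 0.19 (limma adjusted p = 0.0794), and Hpgds, the prostaglandin D2 synthase, at -0.26 ± 0.21 (limma adjusted p = 0.0615). On the higher side, Cyp11a1, a steroid side-chain enzyme, was at 0.38 ± 0.23 (limma adjusted p = 0.0588). The steroid enzymes Hsd3b1 and Cyp11b1, given below, were also higher, and which cells gave the Cyp11a1 signal was not tested. Also on that side were Slc45a3, a solute carrier, at 0.27 ± 0.09 (limma adjusted p = 0.0536), and Ptgs1, cyclooxygenase 1, at 0.28 ± 0.20 (limma adjusted p = 0.0781). At an unadjusted p under 0.05 the list had 4 genes higher and 10 lower. For this and the other lists the share of all genes at that unadjusted p was not computed. The shares given above hold for the adjusted p, so nothing is read from the unadjusted counts. Gata2 and Slc18a2, the transporter that loads histamine into granules, were at -0.01 and 0.01. Cma2, a neighbour of Cma1 in the chymase cluster, was at -0.07 ± 0.05. The mucosal proteases Mcpt1 and Mcpt2, and Mcpt9, were above background on 0 arrays, and Mrgprb2, the receptor for basic secretagogues on connective tissue mast cells, on 3.

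Of 36 tested genes of FcεRI and Kit signalling and of mast cell transcription factors, 1 was higher and 1 lower, with a median of 0.05. Runx1, a transcription factor of blood and of some epithelia, fell by 0.67 ± 0.23 (SD, n = 4; limma adjusted p = 0.00842). Tal1, a factor of blood progenitors and endothelium, stood at 0.26 ± 0.05 (limma adjusted p = 0.0474) and lost the call without array 1, without array 2, without array 3 or without array 4. Fcer1g, the γ chain shared with Fc receptors of macrophages, was at -0.09 ± 0.09, and Mitf at -0.25 ± 0.20 (limma adjusted p = 0.0651). Syk, the kinase next to the IgE receptor, was at 0.27 ± 0.10 (limma adjusted p = 0.0536), Lmo2 at 0.29 ± 0.15 (limma adjusted p = 0.0864) and Stat5a at 0.20 ± 0.11 (limma adjusted p = 0.0940). These 5 were named after their values were seen. At an unadjusted p under 0.05 the list had 7 genes higher and 3 lower, again without a share of all genes beside them.

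Of 18 tested ligands and mediators that act on mast cells, 0 were higher and 1 was lower, with a median of 0.00. Adm, adrenomedullin, fell by 1.24 ± 0.36 on the log2 scale, with -1.42, -1.26, -1.54 and -0.72 on arrays 1 to 4 (limma adjusted p = 0.00292). Kitl, the stem cell factor that binds Kit, was at -0.57, -0.15, -0.055 and -0.59, a mean of -0.34 ± 0.28 (limma adjusted p = 0.16). It was below the control on each array without passing the threshold, and it was named after its values were seen. Il3, Il9, Csf2 and Il10 were above background on 0 arrays.

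Basophils share several of these genes. Of 20 tested genes of basophils, eosinophils and neutrophils, 2 were higher and 1 lower, with a median of 0.08. Cd200r3, a receptor of basophils and mast cells, read -0.87, -0.55, -0.82 and -1.01, a mean of -0.81 ± 0.19 (limma adjusted p = 0.00742). Mpo, the myeloperoxidase of neutrophil granules, rose by 0.63 ± 0.16 (limma adjusted p = 0.00502). Ly6g, a neutrophil surface protein, was at 0.89 ± 0.44 (limma adjusted p = 0.0407) and lost the call without array 2, without array 3 or without array 4. Other neutrophil genes, named after their values were seen, did not pass the threshold. S100a8 was at 0.23 ± 0.63, S100a9 at 0.16 ± 0.63, Ltf at 0.14 ± 0.66 and Elane at 0.02 ± 0.09. On array 3 S100a8, S100a9 and Ltf were at -0.66, -0.68 and -0.76, where Ly6g was at 1.34. The basophil protease Mcpt8 was above background on 2 arrays.

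**Figure D4:**
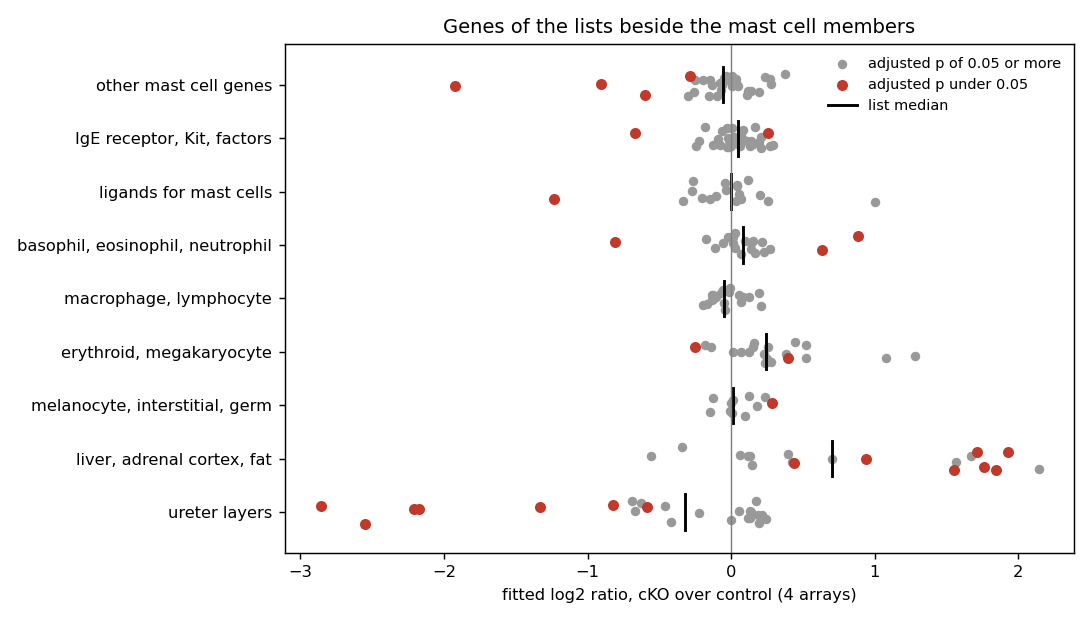
Fitted log2 ratio of cKO over control for the tested genes of each list; red points passed an adjusted p of 0.05, grey points did not, and the black line is the median of the list. The mast cell lists centre near 0, with Galnt6 at -1.92 and Adm at -1.24 farthest to the left among their called genes, whereas genes of liver, adrenal cortex and fat lie mostly to the right.

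Macrophage and lymphocyte genes stayed near 0. Of 21 tested, 0 were higher and 0 lower in limma, with 1 and 1 at an unadjusted p under 0.05, and a median of -0.05. The brightest, Mrc1, a mannose receptor, was at -0.13 ± 0.15, and Csf1r, the receptor of macrophage growth factor, at -0.11 ± 0.07. Of 20 tested red cell and megakaryocyte genes 1 was higher and 1 lower, with a median of 0.25. These were Hbb-b2, an adult β globin, at 0.40 ± 0.16 (limma adjusted p = 0.0431), which lost the call without array 1, 2 or 3, and Gp1bb, a platelet receptor chain, at -0.25 ± 0.03 (limma adjusted p = 0.0455), which lost it whichever array was left out. The summed intensity of the 20 genes was 389082 to 474660 in the controls and 460278 to 571971 in the cKO.

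Some genes of tissues outside the ureter were higher in the cKO. Of 19 tested genes of liver, adrenal cortex and fat, 7 were higher, 0 lower and 12 not past the threshold, with a median of 0.71. Hsd3b1, a steroid dehydrogenase, was at 2.47, 2.49, 1.28 and 1.14 on arrays 1 to 4 (limma adjusted p = 0.0206; not past the threshold without array 1). Afp, the fetal plasma protein of liver and yolk sac, was at 2.77, 2.71, 1.47 and 0.77 (limma adjusted p = 0.0384; not past it without array 1, 2 or 3). The plasma proteins Ahsg, fetuin A, at 1.77 ± 0.85 (limma adjusted p = 0.0352), and Fgb, the fibrinogen β chain, at 1.71 ± 0.91 (limma adjusted p = 0.0464), lost the call without array 1 or 3. Cyp11b1, the 11β-hydroxylase of the adrenal cortex, was at 0.94 ± 0.62 (limma adjusted p = 0.0228; not past it without array 4). Cidea, a lipid droplet protein of brown fat, was at 0.44 ± 0.19 (limma adjusted p = 0.0278; not past it without array 2, 3 or 4). On the other side of 0, and named after their values were seen, Trf, transferrin, was at -0.56 ± 1.19 and Ucp1, the uncoupling protein of brown fat, at -0.34 ± 0.20, neither past the threshold. The summed intensity of the 19 genes was 111328 to 148327 in the controls and 127178 to 366718 in the cKO, higher on 3 arrays of 4. Their part in the mast cell ratios was not tested.

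Of 24 tested genes of the ureter's layers 7 were lower and 0 higher, with a median of -0.32. The basal keratins Krt5, at -2.86 ± 0.10 (limma adjusted p = 0.000155), and Krt14, at -1.33 ± 0.20 (limma adjusted p = 0.00169), were among them, as were Krt15, Shh, Trp63 and Cdh1, of which Cdh1 lost the call without array 1 or 3. All 7 are genes of the epithelium. The list also holds muscle and mesenchymal genes, described here after their values were seen. Each of these lay above 0, from 0.05 for Col1a1 to 0.25 for Myocd, and none passed the threshold. The median thus pools layers that differ in direction. The summed intensity of the 24 genes was 1395710 to 1443130 in the controls and 1145020 to 1348380 in the cKO, lower on each array. For Cpa3, Cma1 and Mcpt4, fewer mast cells and less RNA per mast cell cannot be told apart in whole ureters. The part of the make-up of the dissected tissue was not tested.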

How the data were processed

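Scanner files of 4 arrays were used. The authors deposited linear spot intensities (mean signal and local background per channel), extracted with Agilent Feature Extraction (version 10.7.3.1 in the submitters' processing notes), and a log10 ratio of red over green. The value table deposited by the authors does not state its scale and was read here as log2 of cKO over control, because its slopes on the turned scanner ratios were 0.834 to 0.939. It has 7718 to 12487 probes per array at exactly 0, for a reason not stated.

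Signals were corrected with normexp (offset 50), normalized by loess within each array with control spots at weight 0, and averaged over the 4 spots of a probe without outlier spots. Levels per RNA were also scaled between arrays (Aquantile). A gene entered the fit if, in at least 1 genotype, a probe cleared the background in most spots of every array, and its brightest passing probe stood for it. Ratios were fitted with limma 3.58.1 in R 4.3.3 with a dye term (2 residual degrees of freedom), with Benjamini-Hochberg adjustment over 18161 genes; the fit was checked on simulated data. Probe names were updated through RefSeq symbols (GRCm38.p6), and probes keep the mm9 positions given in the files. The number of arrays limits the precision. The replicate number is the array that both RNAs shared, so pairing is built into the ratios.

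The members and lists were chosen with earlier results of these data known. Every member was named; from each list, genes past the threshold (up to 6 of the lowest p) or the 2 brightest were named, and the 8 genes nearest to Cpa3. Further list genes were named after their values were seen and are marked so in the text.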

Additional observations from a re-analysis of the deposited data

Results flagged for a closer look

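Single arrays stood apart from the other 3 in 4 of 30 sets of 4 values examined, where chance flags about 1 in 20 independent sets. The sets share probes and arrays and are not independent, so nothing is read from that count. The Mcpt4 level in the control of array 1 was 7.19, below the 7.75 to 7.78 of the other controls. Probe 1 of Tpsb2 read 10.40 in the control of array 1, against 9.35 to 9.50 in the others. Fcer1a read 8.36 in the control and 8.17 in the cKO of array 1, against 6.20 to 6.41 in the other 6 RNAs. All 4 values lie on array 1, the array with the most spots above background.

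In 2 genes, by the probe used in the fit, the male pair had the opposite sign to the 3 female pairs. The share of all genes with this pattern was not computed, so nothing is read from that count. Hdc was at 0.21 in the male pair and between -0.86 and -0.39 in the female pairs, and Tpsb2 (probe 1) at 0.085 against -0.41 to -0.02. Probe 2 of Tpsb2 was at -0.30 in the male pair, with the same sign as in the female pairs. Tpsab1 was at 0.83 in the male pair against -0.24 to 0.05 in the female pairs, which lay on both sides of 0. Beside the dye term, the coefficient for the male pair equals array 2 minus array 4. It was 0.65 for Hdc, 0.49 for Tpsb2 and 0.78 for Tpsab1. Only 1 male pair was measured, so no test of this difference is given.

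The highest signals over local background among the probes left out of the fit were 264.4 units for Fcer1a and 56.6 units for Ms4a2, both in the control of array 1.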

How the results depend on the processing

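The counts of members are descriptions, since the members were chosen on this contrast. With Agilent's processed signals Cma1 was at -0.92 and Mcpt4 at -0.72, and with the deposited table Mcpt4 was at -0.76. Members lower numbered 3, 2 with the deposited table, 1 in separate channels with no block, and 2 to 3 with 1 array left out. Over all genes, 530 higher and 1023 lower became 259 and 596 with the deposited table. With separate channels and the array as a replicate block (intra-spot correlation 0.741) they were 1229 and 1722, and with no replicate block 124 and 440. With 1 array left out they were 277 to 359 and 554 to 768. In the 3 mast cell lists, 1 higher became 0 with processed signals, 0 with the deposited table, 2 with scaling between arrays, 2 with the mean of all probes, 5 without a dye term, 7 with the replicate block, 0 without it, and 0 to 1 with 1 array left out; 6 lower became 12 with the block, 3 without it, and 5 to 6 with 1 array left out. The cause of these shifts was not tested.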
